A study of Drosophila melanogaster with 2 samples.

Results

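The genes described here encode the proteins of the mitochondrial ribosome. They were taken from the deposited transcript table as every locus whose symbol begins with mRpL or mRpS followed by a number. Loci whose symbol is shared with another gene were left out, and the transcript with the highest mean read count stood for each locus. This gave 69 of the 13822 loci in the table, of which 44 are named for the large subunit (mRpL) and 25 for the small subunit (mRpS). Everything said below by subunit follows these names, not the place of the protein in the ribosome. All 69 passed the filter on low counts, which left 8236 genes for testing, so no member is missing from the counts below.

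Mitochondria keep a small genome of their own and a dedicated ribosome to translate it. In animals the ribosomal RNAs of that ribosome are transcribed inside the organelle, while all of its proteins are encoded in the nucleus, made on cytoplasmic ribosomes and imported. Its few products are membrane subunits of the respiratory chain and of the ATP synthase. Some of its proteins have counterparts in bacterial ribosomes and carry the bacterial numbers, and others were gained in the mitochondrial lineage. In flies, mutation of tko, which encodes a small subunit protein of this ribosome, slows development and lowers respiratory capacity.

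The tissue was the posterior midgut of female Drosophila melanogaster, aged 9 days and raised at 25 degrees. In the Gli-RNAi group, flies of the strain 5966GS-GAL4; UAS-Gli-RNAi were given RU486, the steroid that switches on the GeneSwitch driver, and the labels describe the result as knockdown of gliotactin in enterocytes, the absorptive cells of the gut. In the Control group, flies of the same strain, carrying the same driver and RNAi transgene, were given ethanol. Gliotactin is a transmembrane protein of the junctions where the corners of several epithelial cells meet. Each condition had 75 midguts and 3 libraries of poly(A) RNA. The labels call the libraries biological replicates and also state that midguts were pooled for extraction, so the p-values measure the spread between these libraries, which may be partly technical. RU486 and the knockdown come together and cannot be told apart, and only 1 RNAi strain was used.

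The libraries held between 8111031 and 14303722 reads in Gli-RNAi and between 6821908 and 10914491 in Control, with 1 transcript counted per locus. Gli itself fell by 1.13 ± 0.059 (SE) on the log2 scale. Enterocyte markers were abundant in every library, with a summed normalised count between 128330 and 134850 in Gli-RNAi and between 184990 and 190000 in Control. The lower sum in Gli-RNAi rests on 1 gene, mag, a lipase gene that averaged 8292 normalised counts in Gli-RNAi and 69813 in Control. Without mag the sum lay between 120200 and 126470 in Gli-RNAi and between 116900 and 119040 in Control. Of 8 enterocyte markers 3 rose (nub, Myo61F and Jon65Aiii) and 3 fell (mag, Npc1b and betaTry). All 7 progenitor markers rose, with a summed count between 3591 and 3762 in Gli-RNAi against 1171 to 1288 in Control, and so did all 6 markers of dividing cells. Of 8 enteroendocrine markers 1 rose and 4 fell, of 5 visceral muscle markers 1 fell, and all 3 fat body markers tested fell. Beside these counts, 27.6% of all genes tested rose and 26.8% fell. None of 6 ovary and eggshell markers passed the filter on low counts, and their summed count was at most 7.26 in Gli-RNAi and 29.4 in Control. These marker lists moved between the same groups as the genes below, and their part in those results was not tested. Whole tissue was sequenced, so fewer cells of a type and less RNA per cell cannot be told apart.

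Every one of the 69 genes was expressed at a moderate level. The mean normalised count over the 6 libraries lay between 76.9 and 797, with a median of 184. Normalised counts are reads scaled for the depth of each library, by factors that average 1. Levels of different genes are compared per transcript length, as normalised reads per kilobase (kb). On that scale the median over the 69 genes was 251, against 123 over all genes tested and 12949 over the cytoplasmic ribosomal protein genes. The large and the small subunit had close medians, 254 and 246 normalised reads per kb.

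The highest level was 5.29 times the lowest, while the 10th and 90th percentiles over all genes tested were 14.9 and 1085 normalised reads per kb. mRpL28, a large subunit protein with a bacterial counterpart, had the highest level at 702, and mRpL12, the protein of the ribosomal stalk that contacts elongation factors, followed at 683. mRpS7, an RNA-binding protein of the small subunit head, had 432 and mRpL24, which lies near the exit of the peptide tunnel, had 387. At the low end, mRpL44, a protein with a fold related to ribonuclease III, had 133 normalised reads per kb. It was followed by mRpL32 with 140, whose precursor is cut by a mitochondrial protease in yeast and mouse, by mRpL48 with 157 and by mRpS28 with 158. The genes are short, with a median transcript length of 744 bases (282 to 1823) against 1957 over all genes tested. They had a median of 2 exons (1 to 7) against 4, and 61 of them had a single transcript in the table.

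**Figure D1:**
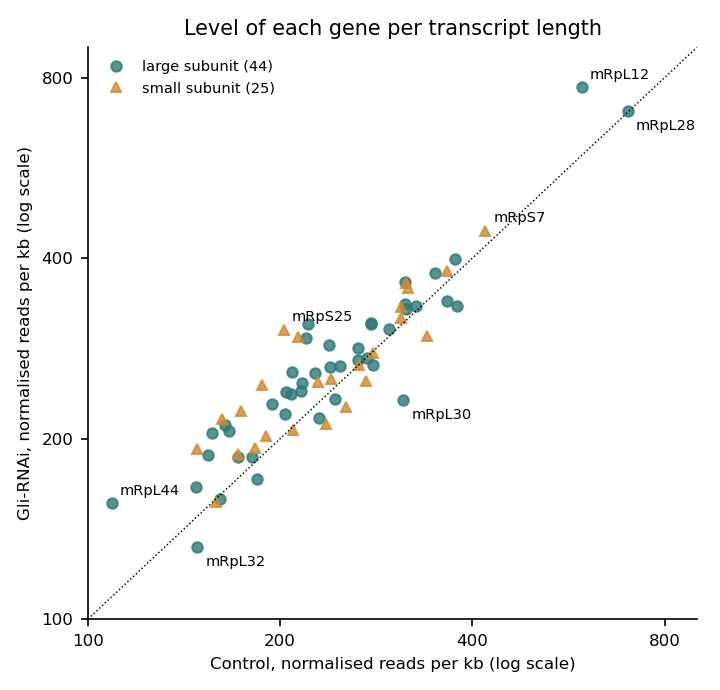
Level of each of the 69 mitochondrial ribosomal protein genes in Gli-RNAi (vertical axis) against Control (horizontal axis), as the mean normalised reads per kb of transcript over 3 libraries, on log scales. Large subunit genes are circles, small subunit genes are triangles, and the dotted line marks equal levels. mRpL12 and mRpL28 lie above the other genes in both conditions, mRpS25 and mRpL44 lie above the line, and mRpL30 lies below it.

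The mitochondrial ribosomal protein genes as a group changed little. Of the 69 genes, 20 rose and 1 fell in Gli-RNAi (edgeR quasi-likelihood test, adjusted p under 0.05 over all 8236 genes), and 48 did not pass the threshold. Over all genes tested 27.6% rose and 26.8% fell, so the 29% of members that rose is near the background, while 1.45% fell. Among the 4298 genes with mean counts in the members' range, 27.2% rose and 23.2% fell. The median log2 fold change was 0.12 over the members and 0.03 over all genes, and 55 members had a positive and 14 a negative estimate.

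The members were also close to one another. The interquartile range of the log2 fold change was 0.22 over the members and 0.60 over all genes tested. All but mRpS25, that is 68 of 69 or 98.6%, had an estimate within 1.5-fold, against 73.3% of all genes and 82.1% of the genes in the same range of counts. The whole 95% confidence interval lay within 1.5-fold for 57 members and within 1.25-fold for 22, so for the remaining members a change past those sizes was not excluded by the interval. The SE of a member's log2 fold change was between 0.065 and 0.162, with a median of 0.099. The libraries of the 2 conditions did not overlap for 22 members that were higher and for 3 that were lower in Gli-RNAi, against 31.6% higher and 28.8% lower over all genes tested.

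The number of rising members depended on the libraries and on the scaling. Without Control replicate 2, 9 members rose and 2 fell, mRpL30 and mRpL4, where 24.5% of all genes rose and 25.8% fell. Without Gli-RNAi replicate 1, 12 rose and 1 fell (23.6% and 24.2% of all genes). With library totals as scaling, which moved the median of all genes up by 0.19 (log2), 49 rose and 0 fell, where 45.4% of all genes rose and 18.4% fell. The DESeq2 Wald test called 9 higher and 1 lower, and 18.8% and 19.9% of all genes. A set of 8 genes rose under all 12 alternative settings: mRpL3, mRpL12, mRpL16, mRpL38, mRpL44, mRpS14, mRpS25 and mRpS31.

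**Figure D2:**
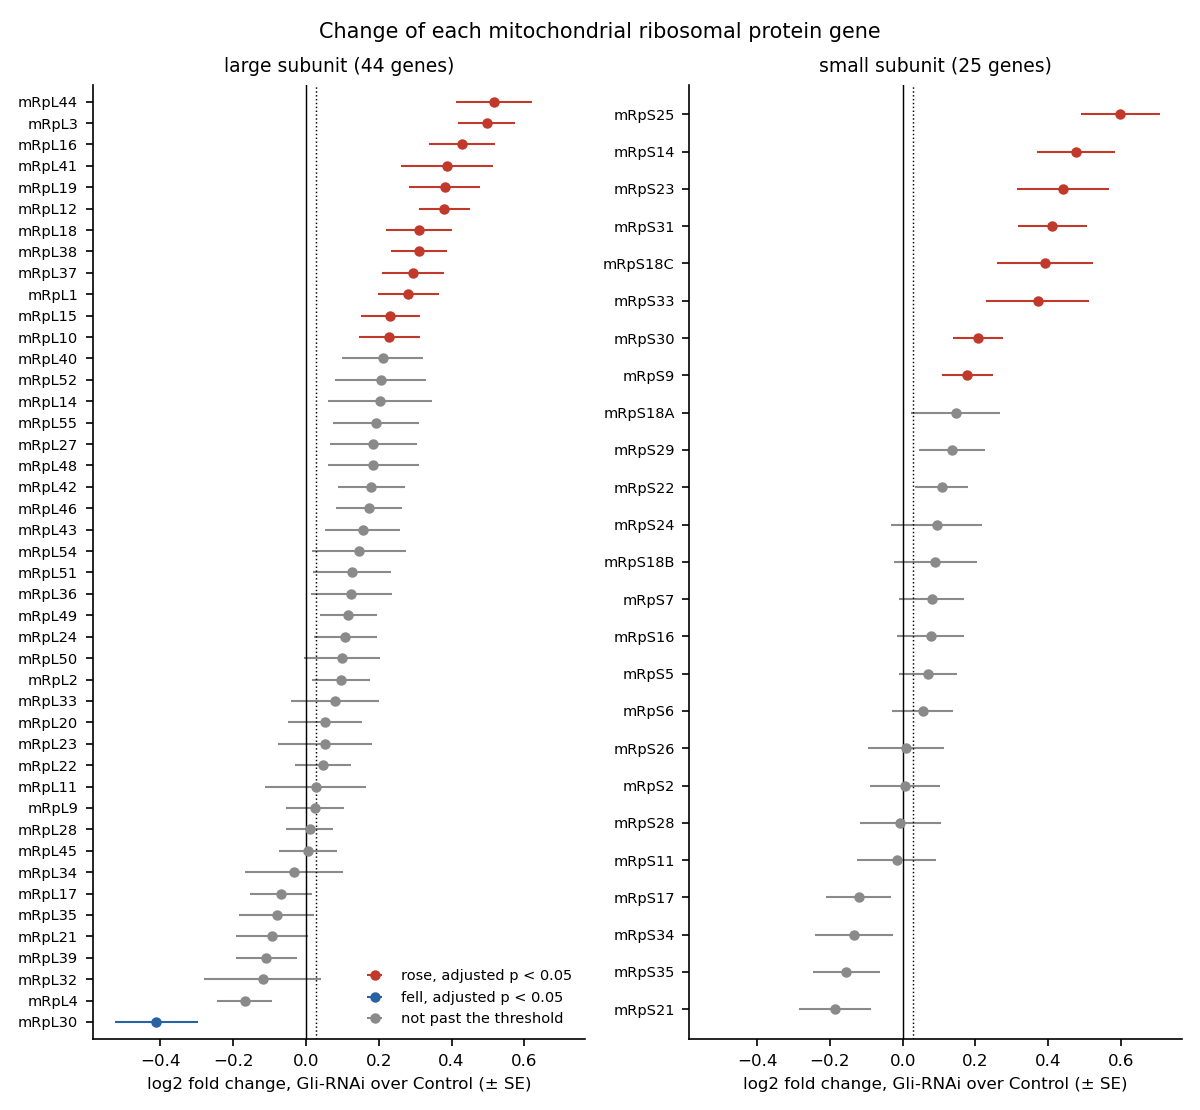
Log2 fold change, Gli-RNAi over Control, of each of the 44 large subunit genes (left) and 25 small subunit genes (right), with bars of 1 SE. The solid line marks 0 and the dotted line the median of all genes tested, 0.03. Red points rose, the blue point, mRpL30, fell, and grey points did not pass the threshold; estimates run between -0.41 and 0.60.

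Of the 25 genes named for the small subunit 8 (32%) rose and 0 fell, against 27.6% and 26.8% of all genes tested. mRpS25, a protein specific to the mitochondrial small subunit, had 203, 178 and 203 normalised counts in Gli-RNAi and 112, 131 and 147 in Control. All Gli-RNAi libraries lay above all Control libraries. Its log2 fold change of 0.60 ± 0.108 (SE, adjusted p = 0.000324) was the highest among the 69 genes. The table places it on chromosome X from 14476169 to 14477015 on the minus strand, in a build it does not name.

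mRpS14 binds RNA in the head of the small subunit and has a bacterial counterpart. It had 146, 131 and 145 normalised counts in Gli-RNAi and 109, 102 and 93.5 in Control, without overlap. It rose by 0.48 ± 0.108 (log2, adjusted p = 0.00192). mRpS31, which bacteria lack, had 307, 308 and 326 against 221, 215 and 279 in Control, where replicate 3 was the highest but still below every Gli-RNAi library. It rose by 0.41 ± 0.095 (log2, adjusted p = 0.00218).

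mRpS23 and mRpS18C rose in the fit with all libraries and did not pass the threshold without Control replicate 2, without Gli-RNAi replicate 1 or in the DESeq2 Wald test. mRpS23, another mitochondria-specific protein, had 165, 146 and 125 normalised counts in Gli-RNAi and 116, 101 and 111 in Control, a log2 fold change of 0.44 ± 0.126 (adjusted p = 0.00891), which was 0.35 without Control replicate 2 and 0.32 without Gli-RNAi replicate 1. mRpS18C is 1 of 3 fly proteins related to bacterial S18. It had 128, 118 and 107 normalised counts in Gli-RNAi and 106, 79.6 and 88.8 in Control, so that the lowest Gli-RNAi library was just above the highest Control library. Its log2 fold change was 0.39 ± 0.132 (adjusted p = 0.0216), and 0.25 without Control replicate 2 and 0.31 without Gli-RNAi replicate 1. The other genes of the S18 family did not pass the threshold: the log2 fold change was 0.15 ± 0.122 for mRpS18A and 0.09 ± 0.114 for mRpS18B, and a test between the 3 genes was not made.

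The remaining small subunit genes that rose changed less. mRpS33 had 104, 83.0 and 94.3 normalised counts in Gli-RNAi and 64.4, 83.3 and 68.6 in Control, and was the only member that rose while its libraries overlapped (log2 fold change 0.37 ± 0.142, adjusted p = 0.0402). mRpS30, whose mammalian counterpart sits in the large subunit despite its name, averaged 662 ± 28.7 normalised counts in Gli-RNAi and 574 ± 31.7 in Control (SD, n = 3). mRpS9, whose bacterial counterpart reaches the site where tRNA binds, averaged 461 ± 9.53 in Gli-RNAi and 410 ± 24.9 in Control. Their log2 fold changes were 0.21 ± 0.069 and 0.18 ± 0.071. None of the 3 kept its call throughout when libraries were left out in turn. mRpS33 lost it without Control replicate 1 or 3 or Gli-RNAi replicate 1 or 3 (0.28 to 0.38), and mRpS30 without Control replicate 2 or Gli-RNAi replicate 2 or 3 (0.13 to 0.19). mRpS9 lost it in each case but without Control replicate 3 (0.09 to 0.21).

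In the large subunit 12 of 44 genes (27.3%) rose and 1 fell (2.27%), against 27.6% and 26.8% of all genes tested. mRpL44 had 192, 183 and 162 normalised counts in Gli-RNAi and 115, 132 and 128 in Control, without overlap. Its log2 fold change was 0.52 ± 0.105 (adjusted p = 0.000847). It was the gene with the lowest level per length, and its human counterpart is a cardiomyopathy gene.

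mRpL3 and mRpL16 have bacterial counterparts that lie next to the peptidyl transferase centre, where peptide bonds form. mRpL3 had 388, 401 and 359 normalised counts in Gli-RNAi and 269, 260 and 288 in Control, and rose by 0.50 ± 0.078 (log2, adjusted p = 9.5e-05), the lowest adjusted p among the 69 genes. mRpL16 had 238, 256 and 240 in Gli-RNAi and 169, 174 and 204 in Control, and rose by 0.43 ± 0.091 (adjusted p = 0.00115). In both genes the groups did not overlap. mRpL3 lies on chromosome X from 15655293 to 15656696 and mRpL16 on the same chromosome from 1784332 to 1785313, both on the plus strand of the table's unnamed build.

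In bacteria the counterparts of mRpL10, mRpL11 and mRpL12 form the stalk that receives translation factors and its base, and that of mRpL1 forms a mobile stalk on the other side of the subunit. mRpL12, which in flies has been linked to growth driven by cyclin D and Cdk4, had 554, 564 and 590 normalised counts in Gli-RNAi and 410, 437 and 464 in Control. It rose by 0.38 ± 0.070 (log2, adjusted p = 0.000386), without overlap between the groups. mRpL10, which holds the stalk protein, averaged 328 ± 8.78 normalised counts in Gli-RNAi and 282 ± 29.4 in Control, and mRpL1 averaged 349 ± 16.9 in Gli-RNAi and 290 ± 26.8 in Control. They rose by 0.23 ± 0.085 and 0.28 ± 0.083 on the log2 scale. mRpL1 lost its call without Control replicate 2 (0.20) or Gli-RNAi replicate 1 (0.25), and mRpL10 lost it without any library other than Control replicate 3 (0.12 to 0.25). mRpL11, at the base of the stalk, had 121, 107 and 108 normalised counts in Gli-RNAi and 99.4, 99.3 and 142 in Control, and its 95% interval ran from -0.27 to 0.33 (log2).

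Of the other large subunit genes that rose, mRpL41 (0.39 ± 0.127), mRpL19 (0.38 ± 0.098), mRpL18 (0.31 ± 0.092) and mRpL38 (0.31 ± 0.077) had log2 fold changes above 0.30. mRpL18 and mRpL19 have bacterial counterparts, mRpL41 and mRpL38 do not. mRpL37 rose by 0.29 ± 0.086 and mRpL15 by 0.23 ± 0.081. mRpL15 showed a small spread, with 225, 235 and 223 normalised counts in Gli-RNAi and 193, 198 and 189 in Control. Without Control replicate 2 none of these but mRpL38 kept its call, at 0.30 for mRpL19, 0.39 for mRpL41, 0.25 for mRpL18, 0.19 for mRpL37 and 0.22 for mRpL15. mRpL41 (0.31 to 0.36) and mRpL15 (0.21 to 0.24) also lost it without Control replicate 1, Gli-RNAi replicate 1 or Gli-RNAi replicate 2.

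**Figure D3:**
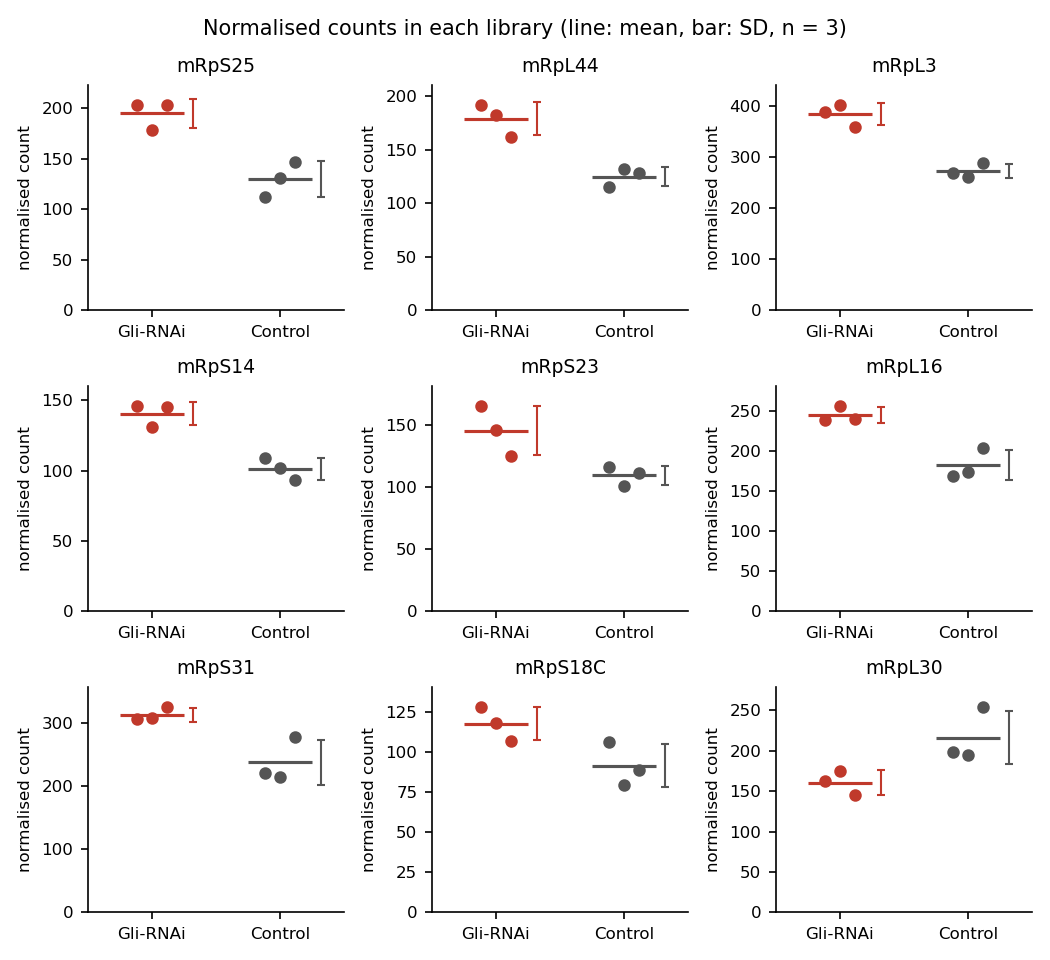
Normalised counts in each library for the 8 genes that rose with the largest log2 fold changes and for mRpL30, which fell. Each point is 1 library, with Gli-RNAi on the left and Control on the right of each panel; the horizontal line is the mean and the bar is 1 SD (n = 3). In all 9 panels the libraries of the 2 conditions do not overlap.

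mRpL30 was the only member that fell. Its bacterial counterpart is a small protein of the large subunit. It had 162, 175 and 145 normalised counts in Gli-RNAi and 199, 195 and 254 in Control, without overlap, and Control replicate 3 was the highest. Its log2 fold change was -0.41 ± 0.113 (adjusted p = 0.00716). It was -0.30 without Control replicate 3 and -0.22 with library totals as scaling, where it no longer passed the threshold (adjusted p = 0.0952). The table places mRpL30 on chromosome X from 4541910 to 4542682 on the plus strand. Its genomic span overlaps that of Torsin, on the opposite strand, by 60 bases. Torsin fell as well, by 0.45 ± 0.065 on the log2 scale (adjusted p = 4.5e-05), and whether reads were assigned by strand is not given in the sources used here.

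mRpL4 and mRpS21 were the other members with all Gli-RNAi libraries below all Control libraries, and neither passed the threshold. mRpL4, which lines the peptide tunnel, had 344, 333 and 337 normalised counts in Gli-RNAi and 402, 350 and 397 in Control (log2 fold change -0.17 ± 0.076, adjusted p = 0.0772). It was past the threshold without Control replicate 2 (-0.27, adjusted p = 0.0140), and its sign turned with library totals (0.02). mRpS21 had 126, 117 and 117 in Gli-RNAi and 134, 138 and 140 in Control (-0.19 ± 0.099, adjusted p = 0.133). Conversely, mRpL42, mRpL49 and mRpS22 were higher in Gli-RNAi without overlap and did not pass the threshold, with log2 fold changes of 0.18 ± 0.092, 0.12 ± 0.078 and 0.11 ± 0.073.

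The 48 genes that did not pass the threshold had log2 fold changes between -0.19 and 0.21. mRpL28, the gene with the highest level, had 795, 774 and 828 normalised counts in Gli-RNAi and 787, 757 and 843 in Control. Its estimate of 0.01 ± 0.065 had a 95% interval from -0.13 to 0.15 (log2). mRpL45, which in mammals helps to dock the ribosome at the inner membrane, had 460, 454 and 475 in Gli-RNAi and 473, 413 and 510 in Control, with an interval from -0.17 to 0.18. In both genes the Gli-RNAi libraries lay within the range of the Control libraries.

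mRpS7, the small subunit gene with the highest level, had 351, 342 and 357 normalised counts in Gli-RNAi and 280, 356 and 354 in Control, where replicate 1 was low (0.08 ± 0.089, log2). mRpS29 is the fly counterpart of human DAP3, a GTP-binding small subunit protein that is also known for a role in cell death. It averaged 356 ± 21.1 normalised counts in Gli-RNAi and 329 ± 38.9 in Control, with an interval of the log2 fold change from -0.06 to 0.33, and was past the threshold without Control replicate 3 (0.22). mRpL2, an RNA-binding core protein near the peptidyl transferase centre, had a log2 fold change of 0.10 ± 0.080. mRpL22, mRpL23 and mRpL24, whose bacterial counterparts surround the peptide tunnel, had 0.05 ± 0.076, 0.05 ± 0.130 and 0.11 ± 0.087. The genes with the lowest levels, mRpL32, mRpL48 and mRpS28, had -0.12 ± 0.162, 0.18 ± 0.124 and -0.01 ± 0.110, and the sign turned with library totals for mRpL32 and mRpS28. mRpL48 was past the threshold without Control replicate 3 (0.29).

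The median log2 fold change was 0.14 in the large and 0.09 in the small subunit. Genes with bacterial numbers (up to 36 in the large and 21 in the small subunit, with mRpS24 added) had 11 of 41 that rose (26.8%), 1 that fell and a median of 0.08. Genes specific to mitochondria had 9 of 28 that rose (32.1%), 0 that fell and a median of 0.18. Differences between these classes were not tested. Leaving out Control replicate 2 reduced the rising genes to 5 in the large and 4 in the small subunit. Without Gli-RNAi replicate 1 the small subunit had 4 and without Gli-RNAi replicate 3 it had 5, where 24.1% of all genes rose and 24.3% fell.

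By chromosome, which was looked at after the values were known, 6 of the 11 members on X rose and 1 fell, where 24.1% of all genes tested on X rose and 26.2% fell. The 6 are mRpS25, mRpL3, mRpS14, mRpL16, mRpL38 and mRpS30. On 3R 7 of 19 members rose, against 26.3% of all genes there, on 3L 3 of 17 (30.2%), on 2L 2 of 11 (27.2%) and on 2R 2 of 11 (30.4%).

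Many of these genes lie close to a neighbour. The genomic spans of 37 of the 69, introns included, overlapped that of another locus of the table in 38 pairs, all on opposite strands. The median overlap was 54.5 bases, and 5 members overlapped by 100 bases or more. How much of it lies in exons was not measured. Of the 37, 12 rose and 1 fell, and of the 32 without an overlap 8 rose and 0 fell, which is 32.4% and 25% that rose against 27.6% of all genes tested. The medians were 0.10 and 0.14. mRpS9 overlaps by 62 bases the gene of the mitochondrial arginyl-tRNA synthetase, ArgRS-m, which also rose. Its span also overlaps by 9814 bases that of wtrw, which fell (-0.70 ± 0.251, log2), while its transcript has 1290 bases. mRpL15 overlaps Psn (0.63 ± 0.068) and mRpL1 overlaps nac (0.53 ± 0.126), which rose. The partners of the other rising members did not pass the threshold or were not tested, among them POLDIP2, which mRpL44 overlaps by 104 bases (0.09 ± 0.079). Partners also changed beside members that did not pass, such as loco (0.37) for mRpL45 and Ns1 (-0.59) for mRpS11. Reads in the overlapping stretches cannot be assigned to a strand here, and how many fell there was not measured, so these pairs are uncertain.

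Summed over the 69 genes, the share of all reads was 0.179%, 0.172% and 0.175% in Gli-RNAi and 0.140%, 0.137% and 0.147% in Control. A share is scaled by library totals. Under that scaling the median log2 fold change was 0.22 over all genes and 0.30 over the members, so much of this rise was shared by genes in general. The cytoplasmic ribosomal protein genes took 6.81%, 6.77% and 6.81% in Gli-RNAi and 9.23%, 9.03% and 9.93% in Control. There were thus 26.3, 25.4 and 25.7 mitochondrial ribosomal protein reads per 1000 cytoplasmic ribosomal protein reads in Gli-RNAi, against 15.1, 15.2 and 14.8 in Control. This ratio needs no scaling between libraries, and no overlap was seen between the groups. The ratio of large to small subunit reads was 1.72, 1.75 and 1.73 in Gli-RNAi and 1.70, 1.71 and 1.76 in Control, where the groups overlapped.

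The members varied less between the Gli-RNAi libraries than between the Control libraries, with a median coefficient of variation of 5.93% in Gli-RNAi and 9.22% in Control. Control replicate 3 was the highest Control library for 48 of the 69 genes. Without it 24 members rose and 1 fell, where 29.3% of all genes rose and 29.6% fell.

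Other parts of mitochondrial translation were examined as lists. The small subunit genes tko and bonsai, which carry other names, did not pass the threshold (0.23 ± 0.115 and 0.17 ± 0.109, log2), although both rose without Control replicate 3 (0.37 and 0.25). Of 9 mitochondrial translation factors 2 rose (22.2%) and 0 fell, against 27.6% and 26.8% of all genes tested. They were mRRF2 (0.75 ± 0.160) and mRRF1 (0.57 ± 0.165), which act in the recycling of ribosomes after termination. Without Control replicate 2 only 1 of the list rose and 1 fell, and mRRF1 was no longer past the threshold there (0.43) or without Gli-RNAi replicate 1 (0.39). mRRF2 had 67.0, 72.9 and 83.5 normalised counts in Gli-RNAi and 47.6, 39.3 and 46.8 in Control. The elongation factor genes mEFTu1 (0.14 ± 0.055) and mEFTs (0.09 ± 0.074) did not pass the threshold, which mEFTu1 did without Control replicate 3 or Gli-RNAi replicate 1 (0.15 and 0.18).

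Of 15 mitochondrial tRNA synthetase genes 4 rose and 1 fell, with a median log2 fold change of 0.18. The 26.7% that rose is near the 27.6% of all genes tested. ArgRS-m (0.53 ± 0.115), AlaRS-m (0.44 ± 0.109) and TrpRS-m (0.31 ± 0.111) rose and IleRS-m fell (-0.40 ± 0.143). LeuRS-m (0.18 ± 0.075) and PheRS-m (0.08 ± 0.064) did not pass the threshold. The count that rose was 2 without Gli-RNAi replicate 1 or without Gli-RNAi replicate 3. IleRS-m did not pass the threshold without Control replicate 1, Control replicate 2, Gli-RNAi replicate 1 or Gli-RNAi replicate 2, so that 0 then fell (-0.39 to -0.32). TrpRS-m did not pass it without Control replicate 1 or 2 or Gli-RNAi replicate 1 or 3 (0.22 to 0.31).

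Of 12 genes for the upkeep and reading of the mitochondrial genome 3 rose and 3 fell, shares near those of all genes tested (27.6% and 26.8%). PolrMT, the mitochondrial RNA polymerase, had 269, 300 and 275 normalised counts in Gli-RNAi and 574, 505 and 433 in Control, without overlap, and fell by 0.85 ± 0.095 on the log2 scale (adjusted p = 3.6e-06). The helicase gene mtDNA-helicase fell by 0.42 ± 0.131, while the DNA polymerase gene PolG1 (0.46 ± 0.175) and the termination factor gene mTerf5 (0.41 ± 0.116) rose. bsf, which encodes an RNA-binding protein, and Lon, a mitochondrial protease gene, did not pass the threshold (0.03 ± 0.070 and 0.15 ± 0.064). The number that rose was 0 without Gli-RNAi replicate 1 and 1 without Gli-RNAi replicate 3, Control replicate 1 or Control replicate 2, and the number that fell was 1 without Gli-RNAi replicate 3. Of the genes named above, PolG1 lost its call without Control replicate 1, Gli-RNAi replicate 1 or Gli-RNAi replicate 3 (0.34 to 0.46). mTerf5 lost it without Control replicate 2 or Gli-RNAi replicate 1 (0.31 and 0.34), and mtDNA-helicase without Gli-RNAi replicate 3 (-0.36). With all libraries TFAM also rose (0.19 ± 0.076) and mTerf3 also fell (-0.34 ± 0.118). TFAM was among the calls lost without Gli-RNAi replicate 1.

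The mitochondrially encoded genes supply the RNA of this ribosome and the messages it translates. Of the 11 measured, 0 rose and 5 fell (45.5%), against 27.6% and 26.8% of all genes tested. Their summed share of all reads did not fall with these calls. It was 7.8%, 7.9% and 8.0% in Gli-RNAi and 6.6%, 7.2% and 8.6% in Control, where the groups overlapped. The poly(A) selection of the libraries limits what the rRNA counts mean. The small rRNA mt:srRNA had 436, 454 and 398 normalised counts in Gli-RNAi and 840, 451 and 1683 in Control, where the groups overlapped and replicate 3 was the highest. Its log2 fold change was -1.17 ± 0.318 with all libraries and -0.53 without Control replicate 3. The large rRNA mt:lrRNA had -0.05 ± 0.096 and the cytochrome oxidase gene mt:CoI -0.12 ± 0.065, both positive with library totals (0.14 and 0.08). mt:Cyt-b fell by 0.43 ± 0.085, mt:ND5 by 0.40 ± 0.117 and mt:ND4L by 0.40 ± 0.086, and mt:ND5 was not past the threshold without Gli-RNAi replicate 1 (-0.34). mt:CoI fell without Control replicate 1 (-0.19). Without Control replicate 3, 1 of the list rose, mt:lrRNA (0.11), and 5 fell, where 29.3% of all genes rose and 29.6% fell. Without Control replicate 1 or Control replicate 2, 7 of the list fell, and 25.8% of all genes fell in the latter case.

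The cytoplasmic ribosomal protein genes had a median log2 fold change of -0.64. Of the 81 tested, 79 fell (97.5%) and 1 rose, against 26.8% and 27.6% of all genes tested. Under the 12 alternative settings 78 to 80 fell. The 1 that rose is qm (0.38), which the choice of names caught and which encodes an isoprenoid synthase, not a ribosomal protein. RpLP0-like, also listed by its name, had 281 normalised reads per kb, against a median of 12949 over the list. It did not pass the threshold (-0.19 ± 0.090) and fell without Control replicate 2 (-0.32). RpS29, RpL5, RpL37A and RpL6 fell by 1.06 ± 0.057, 0.90 ± 0.054, 0.89 ± 0.056 and 0.88 ± 0.053. In the same libraries the values of the mitochondrial ribosomal protein genes ran between -0.41 and 0.60, and that of mRpL30, the lowest, was above the cytoplasmic median.

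**Figure D4:**
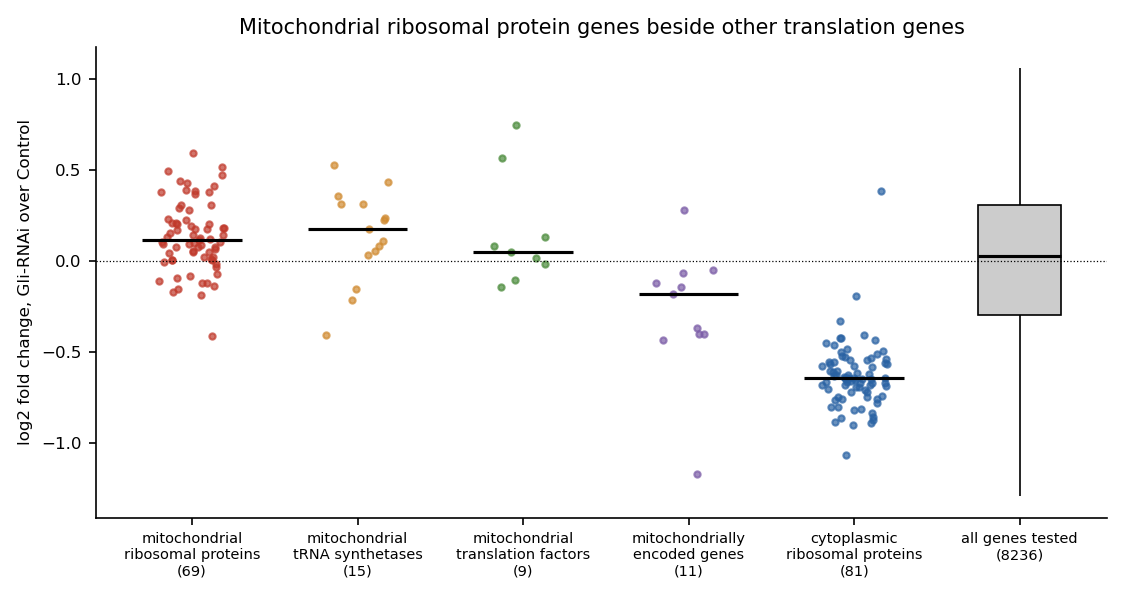
Log2 fold change, Gli-RNAi over Control, of each gene tested in 5 lists (points, with a line at the median). A box marks the quartiles of all 8236 genes tested, and its whiskers extend past the quartiles but not to the extremes. The dotted line marks 0. The mitochondrial ribosomal protein genes sit around a median of 0.12, the cytoplasmic ribosomal protein genes around -0.64.

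Some mitochondrial ribosomal protein names lie outside the selection, and they were looked at after the values were known. mRpL47 is listed under another symbol and had 262, 223 and 241 normalised counts in Gli-RNAi and 188, 223 and 252 in Control (0.15 ± 0.104, log2). Of the loci whose symbol is shared with a second gene, 3 fell: mRpL13/CG10602 by 0.23 ± 0.054 (adjusted p = 0.00259), mRpL53/CG33155 by 0.21 ± 0.083 (adjusted p = 0.0481) and mRpS10/CG34316 by 0.38 ± 0.097 (adjusted p = 0.00477). Their reads cannot be assigned to either gene of the pair, and none of the 3 passed the threshold with library totals as scaling. mRpL53/CG33155 also lost its call without Control replicate 3 or any 1 of the Gli-RNAi libraries (-0.25 to -0.13), and mRpL47 rose without Control replicate 3 (0.24).

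The authors' deposited table of 3049 genes lists 16 of the 69 members. All 16 have a positive log2 fold change there, and all are among the 20 that rose here. mRpL30, which fell here, is not among the 16. The authors' adjusted p-value for its transcript was nevertheless 0.000569 (the submitters' notes name DESeq). In the authors' deposited table mRpS25 has the highest value of the 16, a mean log2 fold change of 0.56.

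Set against the median of all genes, the members' median was higher under each of the 12 alternative settings, by 0.04 to 0.14 on the log2 scale, and by 0.09 with all libraries. The lowest distance was found without Control replicate 2 and the highest without Control replicate 3.

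**Figure D5:**
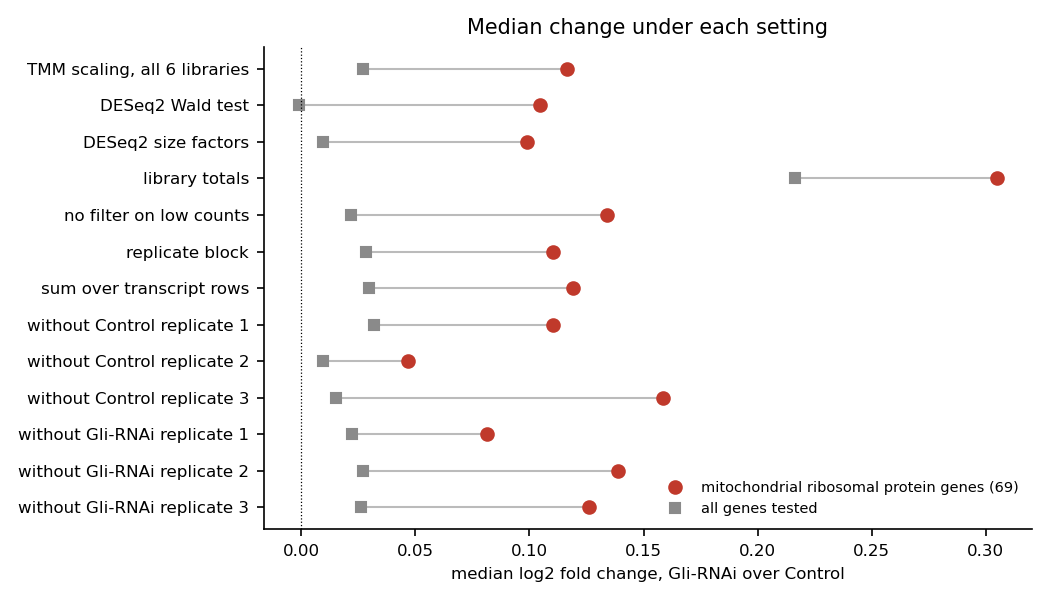
Median log2 fold change, Gli-RNAi over Control, of the 69 mitochondrial ribosomal protein genes (red circles) and of all genes tested (grey squares), with all libraries and under each of 12 alternative settings. The members' median lies to the right of that of all genes in each row, and library totals move both by about the same distance.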

How the data were processed

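The deposited transcript table has, per the file headers, unnormalised counts of reads in 24047 transcripts and 6 libraries, beside the authors' p-values and adjusted p-values. A second deposited table holds the authors' mean log2 fold changes and smallest p-values for 3049 genes. The submitters' processing notes name DESeq. How reads were aligned, on which build, and whether they were counted by strand is not given in the sources used here. All rows summed to 1.998 times the counts with 1 transcript per locus. That ratio does not show whether reads in shared exons were counted in each transcript or divided among them. Symbols were updated through the RefSeq gene table.

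Each locus was represented by its transcript with the most reads. The test was edgeR's quasi-likelihood F test (edgeR 4.0.16, R 4.3.3) over 8236 genes, after TMM scaling and edgeR's default filter, with Benjamini-Hochberg adjustment at 0.05. The SE was worked out from the log2 fold change and its F value, and 95% intervals use the degrees of freedom of the fit. Errors after ± are the SD of counts or the SE of a log2 fold change. The procedure was tested on simulated counts. Alternatives were DESeq2 1.42.0 size factors, its Wald test, library totals, no filter, sums over transcripts, a replicate block and each library left out.

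Named members are the 8 that rose most, all that fell, the 4 with the highest and lowest levels per length and the 4 highest that did not pass the threshold. From each list up to 4 genes past the threshold and up to 2 others were named. Other members were named for their role or after their values were seen. Members and lists were chosen with earlier results of these data known. The table matched neither mEFG2 and mtRF1L (translation factors) nor mtTFB1, SLIRP1 and PolG2 (genome upkeep) nor Act57B (muscle).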

Additional observations from a re-analysis of the deposited data

How the results depend on the processing

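Each of the 12 alternatives kept the members' median above that of all genes. Counting each named member under each alternative, 25 estimates changed sign, all of genes not past the threshold with all libraries, 53 calls were lost and 16 were gained. With library totals, 3737 genes rose, 49 members rose and 0 fell, 33 large and 16 small subunit members rose with 0 lower, and the members' median was 0.30. There 2 of tko and bonsai, 4 translation factors, 9 synthetases, 6 genome upkeep genes and 1 mitochondrially encoded gene rose, and 0 synthetases and 1 upkeep gene fell. Signs turned for mRpL32 (0.069), mRpS28 (0.18), mRpL4 (0.020), mRpS21 (0.0029), mt:lrRNA (0.14) and mt:CoI (0.076). The DESeq2 Wald test called 9 members higher (6 large, 3 small), 1 translation factor and 1 upkeep gene higher, and 0 synthetases, 1 upkeep gene and 3 mitochondrially encoded genes lower, with mRpL45 at -0.0037 and mRpL11 at -0.0049. With DESeq2 size factors mRpL28 was at -0.0080 and mRpL45 at -0.013. Without the filter 1 of tko and bonsai rose and mRpS28 was at 0.012. With sums over transcript rows the members' share was 0.0942% in Gli-RNAi and 0.0807% in Control. The total of all rows was 1.998 times that with 1 transcript per locus.

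Samples with the same replicate number did not deviate together (r between -0.16 and 0.05), and the labels give no pairing. With 3 libraries per condition these values cannot show whether same-numbered libraries were handled together. With a replicate block 17 members rose (24.6%) and 1 fell, where 26.3% of all genes rose and 25.7% fell. In that fit 1 upkeep gene rose, and mRpL45 was at -0.0017.

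Leaving out each library in turn gave 9 to 24 members that rose and 1 to 2 that fell. The 9 were found without Control replicate 2, where 24.5% of all genes rose and 25.8% fell. The 24 were found without Control replicate 3, where 29.3% of all genes rose and 29.6% fell. The large subunit had 5 to 16 that rose and 1 to 2 that fell, and the small subunit 4 to 8 that rose. Of tko and bonsai 0 to 2 rose, of translation factors 1 to 3 rose and 0 to 1 fell, and of synthetases 2 to 5 rose and 0 to 1 fell. Of upkeep genes 0 to 4 rose and 1 to 3 fell, and of mitochondrially encoded genes 0 to 1 rose. The members' median ran from 0.047 to 0.16. Estimates with both signs ran from -0.056 to 0.055 for mRpL28, from -0.019 to 0.12 for mRpS7, from -0.00088 to 0.16 for mRpL24 and from -0.25 to 0.072 for mRpL32. They ran from -0.058 to 0.025 for mRpS28, from -0.11 to 0.079 for mRpL45, from -0.048 to 0.16 for mRpS18B, from -0.071 to 0.15 for mRpL23 and from -0.11 to 0.19 for mRpL11. Outside the members they ran from -0.0091 to 0.25 for bonsai, from -0.0022 to 0.13 for mEFTs, from -0.034 to 0.069 for bsf and from -0.15 to 0.11 for mt:lrRNA. The cause of these shifts was not tested.

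At this depth and with 3 libraries per condition, the SE of a member's log2 fold change was between 0.065 and 0.162, and the 95% interval lay within 1.25-fold for 22 of the 69 members.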
